A study of Homo sapiens with 6 samples.

Results

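The comparison described here sets A549 cells carrying HOXB9 with the T133A change, in which alanine replaces a threonine, against A549 cells carrying unchanged HOXB9 (WT). A549 is an established human line derived from a lung adenocarcinoma. Libraries were chosen by their labels alone, 2 of T133A and 2 of WT, which makes 4 of the 6 libraries of the series. The other 2 libraries come from A549 cells labelled as a HOXB9 knockout (KO), and their levels are given only beside those of the 4. Cells of all groups were stably transduced with a pLVX lentivirus, grown in RPMI medium with FBS and extracted with Trizol. No group is labelled as an empty-vector control. Whether the endogenous HOXB9 gene was intact in WT and T133A cells, and whether a group is 1 clone, is not stated in the labels. Nor is it stated that paired libraries were grown as separate cultures, and p-values then reflect only library-to-library spread, which may be technical.

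HOXB9 is a homeobox transcription factor of the posterior HOX group, and the residue studied here lies outside its DNA-binding homeodomain. AMPK, a kinase that senses low cellular energy, has been described as a kinase of this residue. NF-kB, a transcription factor of inflammation and cell survival, works through dimers of 5 subunits. Inhibitor proteins hold these dimers in the cytoplasm until upstream kinases release them. Many NF-kB targets encode the pathway's own inhibitors, so that the inhibitors are made when the pathway is active. A549 cells make mucins and liver- or gut-type proteins as well as lung ones, and NF-kB targets in airway epithelium include antimicrobial proteins, adhesion molecules and protease inhibitors.

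Total counts ran from 16692104 to 18344938 in the 4 libraries. Mitochondrial genes held 7.84 to 7.87% of counts in WT and 8.51 to 8.91% in T133A. The T133A replicates differed from each other more than the WT replicates did (chi-square per degree of freedom 10.1 against 2.46), and GC-rich genes were higher in T133A replicate 1 than in replicate 2 (Spearman rho over genes of GC content with the log2 ratio of replicate 2 to 1, -0.70). GC content also went with the log2 fold change of T133A against WT (rho over genes 0.23), and with the ratio of WT replicate 2 to 1 (0.28). HOXB9 stood at 223 and 217 CPM in WT and 275 and 210.3 CPM in T133A, with 14.5 and 15.4 CPM in KO, and the WT and T133A groups overlapped (log2 fold change 0.14, SE 0.11, edgeR adjusted p = 0.495). Levels in CPM are counts scaled to a common library size by TMM, and a log2 fold change is T133A against WT, positive where T133A is higher. Without T133A replicate 1 the HOXB9 log2 fold change was -0.05, and without T133A replicate 2 it was 0.33 (edgeR adjusted p = 0.0202). The counts do not separate the lentiviral transcript from the cells' own. Defining markers of alveolar type 2 cells, fibroblasts, leukocytes and endothelium were mostly too low to be tested (10 of 32 tested), and their summed levels were 131 to 132 CPM in WT and 132 to 148 CPM in T133A for alveolar type 2 cells, 28.998 to 29.2 and 32.3 to 32.9 for fibroblasts, 9.20 to 12.6 and 13.9 to 17.1 for leukocytes, and 0.390 to 1.17 and 1.65 to 1.72 for endothelium. Single genes held most of each sum, ABCA3 for alveolar type 2 cells, LUM for fibroblasts, CD14 for leukocytes and PECAM1 for endothelium. PTPRC, the pan-leukocyte marker, had at most 1 count in each of the 4 libraries. So did SFTPC, the surfactant gene that defines alveolar type 2 cells. The collagen gene COL1A2 had at most 2 counts, but other fibroblast markers were present. COL1A1 had 110 and 114 counts in WT and 153 and 100 in T133A. THY1 had 13 and 11 counts in WT and 44 and 13 in T133A. Neither COL1A1 nor THY1 was called. The leukocyte marker ITGAM was called higher (1.46 and 1.17 CPM in WT and 4.31 and 2.65 CPM in T133A), though not without T133A replicate 1, and of the 6 epithelial markers KRT7 was (869.7 and 888 CPM in WT and 1402 and 1227 CPM in T133A).

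Of 16340 genes tested, 912 were called higher in T133A (5.58%) and 648 lower (3.97%), 1560 in all (9.55%). A call is an adjusted p under 0.05 by edgeR's quasi-likelihood test, with Benjamini-Hochberg adjustment over all genes tested. Rises reached larger folds than falls. Of the genes called, 285 were higher by at least 2-fold (1.74%) and 146 lower by at least 2-fold (0.894%). At 4-fold the numbers were 105 and 32, and at 8-fold 44 and 6. The median log2 fold change of all genes was 0.0035, with quartiles of -0.22 and 0.19. Both T133A libraries lay on the same side of both WT libraries for 8754 genes (53.6%), and this held for all 1560 called. A small p-value favours such separation, so for called genes it adds little to the call. Genes called higher took 6.95 and 6.89% of all CPM in the WT libraries and 10.9 and 10.9% in the T133A libraries, and genes called lower went from 5.13 and 4.99% to 3.002 and 3.33%. With scaling by library size alone, 668 genes were higher and 818 lower, so that rises made up 45.0% of the calls in place of 58.5%. The number of calls moved with the library left out and with the model. Without WT replicate 1 it was 456 higher and 307 lower, without WT replicate 2 467 and 373, and without T133A replicate 2 1447 and 1132. A correction for GC content and length gave 1522 and 878. Genes described as higher or lower were called in the fit of all libraries. In such bulk libraries, more cells with a transcript and more of it per cell cannot be told apart.

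**Figure D1:**
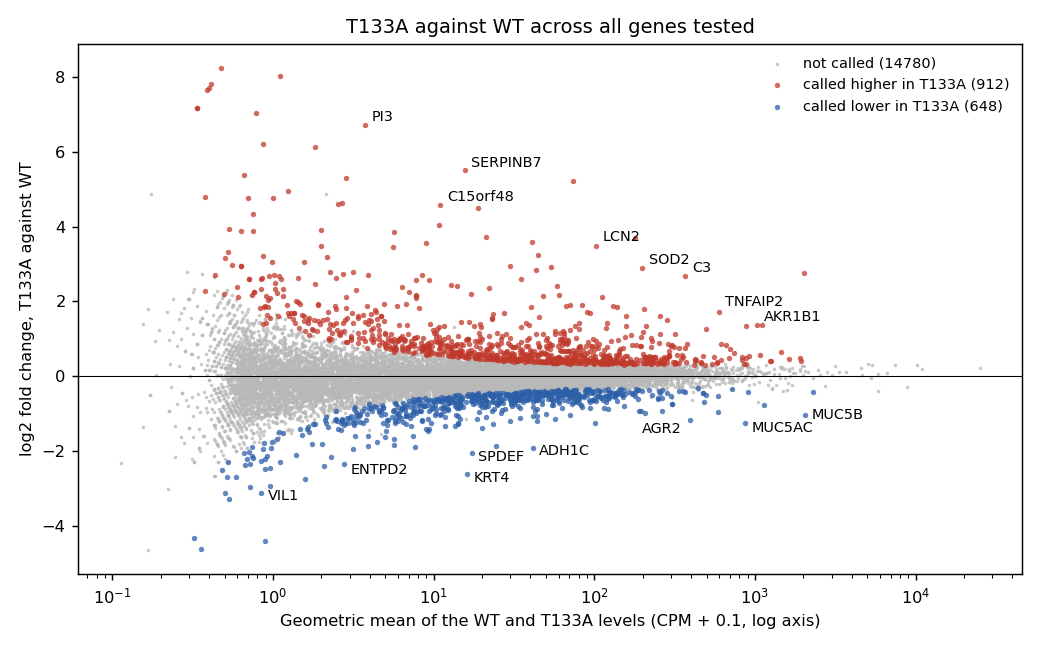
Each point is 1 of 16340 genes tested; the x axis is the geometric mean of the WT and T133A levels (CPM + 0.1, log axis) and the y axis the log2 fold change of T133A against WT. Red points (912) were called higher and blue points (648) lower, and rises reach further from 0 than falls. Named rises lie at low levels (PI3, SERPINB7) and among abundant genes (C3, TNFAIP2), and so do named falls (ENTPD2, and MUC5AC and MUC5B). Among genes with a mean of at least 100 CPM, 227 were higher and 90 lower.

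The share of genes called higher was largest among abundant genes. Among 2096 genes with a mean of at least 100 CPM, 227 were higher (10.8%) and 90 lower (4.29%), and among 7750 genes of 10 to 100 CPM 432 were higher (5.57%) and 380 lower (4.90%). Of 4497 genes of 1 to 10 CPM 221 were higher (4.91%) and 158 lower (3.51%), and of 1997 below 1 CPM 32 were higher and 20 lower. Rises of at least 2-fold were spread otherwise, with 146 in the tier of 1 to 10 CPM and 32 among genes of at least 100 CPM. The largest gain in absolute level outside the cytokines was that of TGFBI, a secreted matrix protein, at 695 and 683 CPM in WT and 1876 and 1698 CPM in T133A. AKR1B1, an aldose reductase, followed at 643 and 641 CPM in WT and 1753 and 1565 CPM in T133A. The largest losses were those of the gel-forming mucins MUC5B and MUC5AC.

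Of the 5 NF-kB subunits, 3 were higher and none lower. NFKB2, the precursor of the p52 subunit, stood at 47.9 and 49.9 CPM in WT and 145 and 120.3 CPM in T133A (log2 fold change 1.44, SE 0.11, edgeR adjusted p = 3.77e-09). RELB, the partner of p52, stood at 12.2 and 14.8 CPM in WT and 45.5 and 33.7 CPM in T133A (log2 fold change 1.55, SE 0.16, edgeR adjusted p = 2.32e-07). NFKB1, the p105 precursor, was higher by less (39.4 and 42.3 CPM in WT and 72.96 and 62.97 CPM in T133A; log2 fold change 0.73). The subunits' transcripts also stood above WT in KO, at 142 and 134 CPM for NFKB2 and 42.2 and 37.2 CPM for RELB.

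Among 21 inhibitors and feedback genes of NF-kB, 11 were higher (52.4%) and none lower, with a median log2 fold change of 0.60. TNFAIP3, which encodes the deubiquitinating enzyme A20, had the largest difference. It stood at 11.2 and 12.3 CPM in WT and 147 and 135 CPM in T133A (log2 fold change 3.58, SE 0.13, edgeR adjusted p = 3.76e-15), and its KO libraries were at 11.4 and 10.3 CPM, within the WT range or just below it. ZC3H12A, an RNase that degrades cytokine transcripts, stood at 23.8 and 21.97 CPM in WT and 109 and 92.1 CPM in T133A (log2 fold change 2.13). BIRC3, a ubiquitin ligase that limits cell death, stood at 43.4 and 43.7 CPM in WT and 138 and 186 CPM in T133A (log2 fold change 1.90). NFKBIA, the classical inhibitor IkB-alpha, stood at 51.6 and 51.97 CPM in WT and 137 and 111 CPM in T133A (log2 fold change 1.26). TNFAIP2 (1.72) and TNIP1 (1.35), an A20-binding protein, completed the 6 with the smallest p.

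The kinases and adaptors upstream moved in fewer cases, with 5 of 33 higher (15.2%) and none lower. IRAK2, a kinase of the interleukin-1 and Toll-like receptor pathway, was the exception in size, at 16.5 and 15.9 CPM in WT and 114 and 119 CPM in T133A (log2 fold change 2.84, SE 0.12, edgeR adjusted p = 1.04e-13). IKBKE, a kinase related to the IkB kinases, rose by 1.35 on the log2 scale, RIPK2 by 0.80 and TRAF3 by 0.64. A correction for GC content and length gave 8 of 33 higher.

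Stretches of promoter sequence are shown for some of these genes, chosen because they hold a match to an NF-kB motif. RefSeq promoters on GRCh38.p14 were found for 11193 of the tested genes, and the 250 bases before each start were searched on both strands. Each line gives 50 bases of a promoter, 5′ to 3′ along the gene, for NF-kB feedback genes and for genes of other roles that were higher by at least 2-fold. Capitals mark the first match to the NF-kB consensus motif in each promoter. Some promoters hold a further match, which for TNFAIP3 lies in the printed stretch in small letters. The promoters of NFKB2, ZC3H12A, TNFAIP2, TNIP1, IRAK2 and IKBKE, searched in the same way, held no match.

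TNFAIP3 (chr6:137867172-137867221, forward strand): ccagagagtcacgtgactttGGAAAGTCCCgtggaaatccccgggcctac
NFKBIA (chr14:35404801-35404850, reverse strand): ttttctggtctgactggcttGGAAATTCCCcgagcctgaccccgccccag
BIRC3 (chr11:102317265-102317314, forward strand): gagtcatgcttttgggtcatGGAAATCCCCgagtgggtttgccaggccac
NFKBIZ (chr3:101827747-101827796, forward strand): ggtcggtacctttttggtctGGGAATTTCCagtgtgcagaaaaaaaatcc
LCN2 (chr9:128149258-128149307, forward strand): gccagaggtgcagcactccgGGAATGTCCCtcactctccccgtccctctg
LAMB3 (chr1:209652455-209652504, reverse strand): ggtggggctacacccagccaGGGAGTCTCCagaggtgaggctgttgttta
ITGA5 (chr12:54419319-54419368, reverse strand): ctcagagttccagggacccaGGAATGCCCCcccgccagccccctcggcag
TNFRSF9 (chr1:7940884-7940933, reverse strand): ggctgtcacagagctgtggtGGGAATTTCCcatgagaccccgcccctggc
LRRC55 (chr11:57181849-57181898, forward strand): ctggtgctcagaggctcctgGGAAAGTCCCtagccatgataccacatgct
PDZK1IP1 (chr1:47190226-47190275, reverse strand): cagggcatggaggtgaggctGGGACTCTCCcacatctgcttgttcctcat

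A match to the NF-kB consensus was found in 6.05% of all 11193 promoters, in 19.3% of 192 promoters of genes higher by at least 2-fold, in 28.99% of 69 higher by at least 4-fold, and in 3.33% of 90 lower by at least 2-fold. The core of the interleukin-8 NF-kB site, GGAATTTCC, was in 0.402% of all promoters and in 5.73%, 11.6% and 0% of those sets. Chemokine genes were kept in the sets, and CXCL1, CXCL2, CXCL3, CXCL5, CXCL8 and CXCL10 are among the matches to this core. The sequences around the match are nearly alike in CXCL1, CXCL2 and CXCL3, so these promoters do not count as independent. The bases of this core lie within a form of the consensus, so a promoter can count for both. The AP-1 motif TGANTCA was in 4.11% of all, in 11.5% and 15.9% of the promoters of genes higher by at least 2-fold and 4-fold, and in 8.89% of those lower by at least 2-fold. The HOX9 type motif TTTACGA was in 0.465% of all promoters and in none of the 192 or the 90. At so low a share, sets of this size can hold no match without differing from all promoters. The forkhead motif TGTTTAC was in 2.07%, 1.56% and 4.44%. The sets differed in base composition, with a median promoter GC content of 64.8% in all, 62.2% in the 192 and 57.8% in the 90, and its part in these shares was not tested. A match is a run of letters, not a measured binding site.

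**Figure D2:**
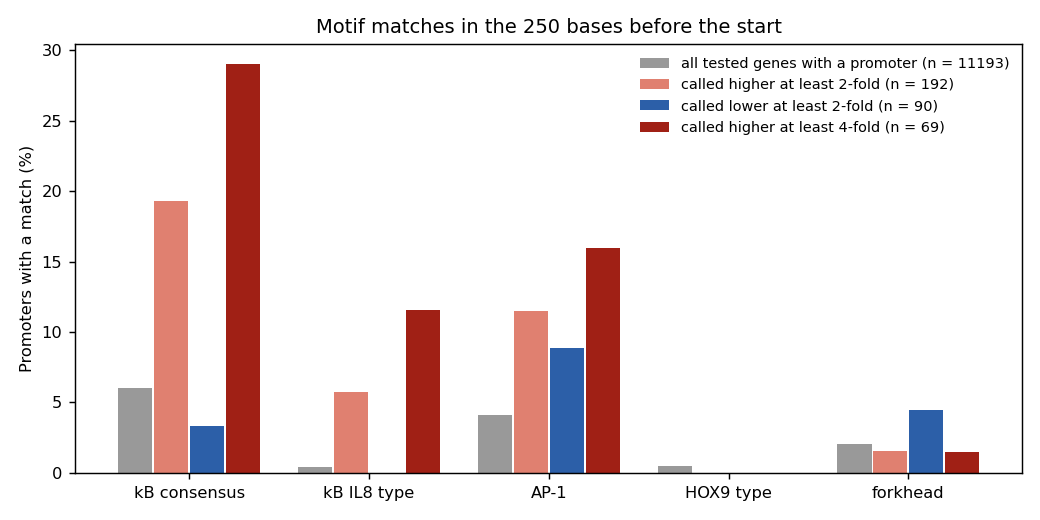
Share of promoters (%, y axis, from 0) with a match to each of 5 motifs (x axis) in the 250 bases before the start. Grey bars are all 11193 promoters, light and dark red those of genes higher by at least 2-fold and 4-fold, blue those lower by at least 2-fold. The NF-kB consensus goes from 6.05% (grey) to 28.99% (dark red). The HOX9 type motif is at 0 in all coloured bars, and is too rare in all promoters (0.465%) for this to be informative.

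Some secreted antimicrobial and acute-phase proteins had large rises. Of 24 tested, 9 were higher (37.5%) and 3 lower. PI3, the elastase inhibitor elafin, was nearly absent from WT and stood at 0.234 and 0.390 CPM in WT and 37.8 and 29.6 CPM in T133A (log2 fold change 6.71). LCN2, lipocalin 2, which binds bacterial iron carriers, stood at 32.4 and 28.998 CPM in WT and 370.3 and 313 CPM in T133A (log2 fold change 3.48, SE 0.17, edgeR adjusted p = 3.55e-11), and at 3.76 and 7.48 CPM in KO. The serum amyloid genes SAA1 (0.117 and 0.223 CPM in WT and 13.1 and 11.6 CPM in T133A) and SAA2 were at or near 0 in WT, and LBP, the lipopolysaccharide-binding protein, stood at 0.0585 and 0.223 CPM in WT and 3.91 and 4.23 CPM in T133A. SAA1 and SAA2 are near-identical copies, so the split of reads between them is uncertain. The lysosomal protease CTSS, at 115 and 116 CPM in WT and 241 and 258 CPM in T133A, rose from a substantial level. FGL1, a liver-type secreted protein, went down from 44.5 and 45.9 CPM in WT to 21.2 and 18.5 CPM in T133A (log2 fold change -1.19). When genes under a mean of 5 CPM were left out, which removes the scarcest of these transcripts, 4 members were higher, and without WT replicate 2 only 1 was lower.

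C15orf48, which encodes a small mitochondrial protein and hosts a microRNA, stood at 2.34 and 2.06 CPM in WT and 57.2 and 47.9 CPM in T133A (log2 fold change 4.58, SE 0.19, edgeR adjusted p = 3.19e-14). PDZK1IP1, a small membrane protein, stood at 2.46 and 2.73 CPM in WT and 47.03 and 38.5 CPM in T133A (log2 fold change 4.04). Further rises among the 25 largest were those of GLIPR1 (14.7 and 13.7 CPM in WT and 76.6 and 94.5 CPM in T133A) and of NPHS1, the slit-diaphragm protein nephrin (0.760 and 0.335 CPM in WT and 6.67 and 5.53 CPM in T133A). LRRC55, an auxiliary subunit of potassium channels, stood at 0.234 and 0.112 CPM in WT and 5.58 and 5.47 CPM in T133A. In each case both T133A libraries stood several times above both WT libraries. The genes were chosen as large rises without overlap of the groups, so this separation follows from the choice.

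**Figure D3:**
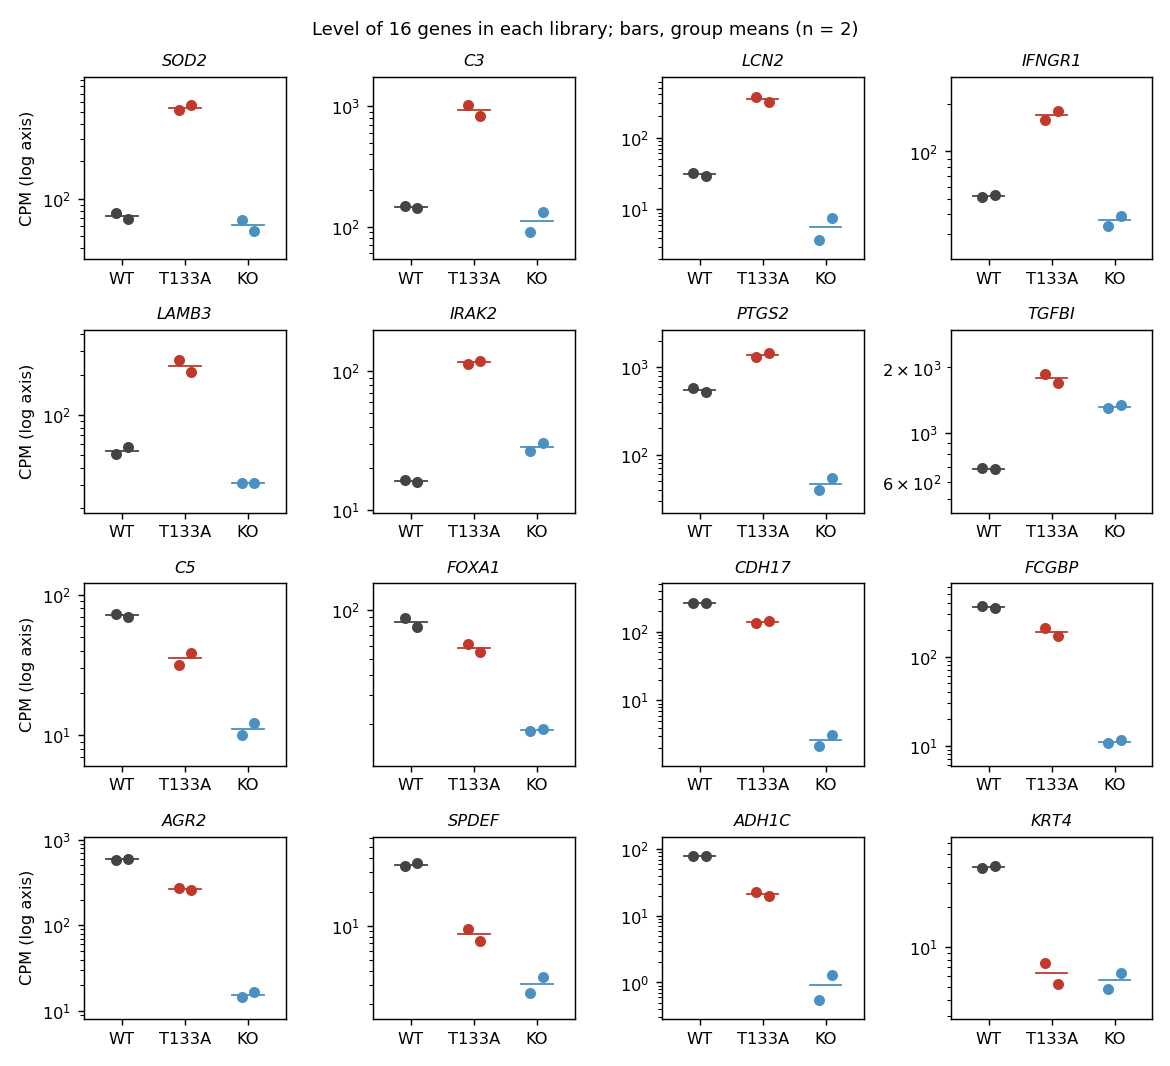
Level of 16 genes in each library (y axis, CPM on a log axis; x axis, group), 1 point per library with bars at the group means (n = 2). The first 8 panels, SOD2 to TGFBI, show genes higher in T133A than in WT, and the last 8, C5 to KRT4, genes lower in T133A; KO levels lie above WT for IRAK2 and TGFBI and below WT for the mucous genes AGR2 and FCGBP.

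Complement genes changed in both directions. Of 23 tested, 6 were higher (26.1%) and 5 lower (21.7%). C3, the component on which all activation routes converge, stood at 148 and 142 CPM in WT and 1033 and 837 CPM in T133A (log2 fold change 2.69, SE 0.14, edgeR adjusted p = 1.45e-11). CFB, the protease precursor of the alternative route, stood at 7.37 and 8.48 CPM in WT and 42.4 and 30.2 CPM in T133A (log2 fold change 2.19). C1S and C1R, the neighbouring genes of the classical route's proteases, rose by 1.62 and 1.62 on the log2 scale, to 462 and 431 and 305 and 247 CPM. C5, the component that starts the terminal pathway, went the other way, at 72.7 and 69.9 CPM in WT and 31.9 and 38.6 CPM in T133A (log2 fold change -1.02, SE 0.13, edgeR adjusted p = 7.03e-06). All 5 of these genes were lower in KO than in both WT libraries. Lower members numbered 3 when either WT library was left out and 3 by DESeq2, and C5 was among those lower in every fit that left out 1 library.

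Of 18 serpins tested, 8 were higher (44.4%) and 2 lower. SERPINB7, SERPINB3 and SERPINB4, inhibitors of the clade B cluster on chromosome 18, had the largest rises, and SERPINB7 stood at 2.46 and 2.06 CPM in WT and 105 and 99.7 CPM in T133A (log2 fold change 5.50, SE 0.17, edgeR adjusted p = 1.51e-16). SERPINB3 and SERPINB4 are close copies (4.27 and 3.57 CPM in WT and 90.7 and 85.8 CPM in T133A for SERPINB3, 2.10 and 2.96 CPM in WT and 29.1 and 31.5 CPM in T133A for SERPINB4), and reads may be shared between them. SERPINI1, neuroserpin, was lower (13.7 and 16.6 CPM in WT and 5.35 and 5.64 CPM in T133A; log2 fold change -1.46).

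Higher members of the coagulation list included a plasminogen activator and inhibitors. Of 22 genes of coagulation and plasminogen activation, 7 were higher (31.8%) and 3 lower. PLAU, urokinase, stood at 45.01 and 46.5 CPM in WT and 109 and 106 CPM in T133A (log2 fold change 1.23). The inhibitors SERPINE2 (1.03) and TFPI2 (1.13) and the thrombin receptor THBD (0.99) were higher as well. F5, coagulation factor V, was lower (8.01 and 7.64 CPM in WT and 2.99 and 3.35 CPM in T133A; log2 fold change -1.30). The count of lower members was 1 without WT replicate 1, when F5 alone remained. Among 50 matrix and membrane proteases and inhibitors, 11 were higher (22.0%) and 2 lower. MMP7, matrilysin, stood at 166 and 172 CPM in WT and 479 and 482 CPM in T133A (log2 fold change 1.51), ADAM19 at 3.51 and 4.02 CPM in WT and 22.7 and 22.5 CPM in T133A (log2 fold change 2.58) and the cathepsin gene CTSB at 452 and 468 CPM in WT and 874 and 784 CPM in T133A (log2 fold change 0.85). MMP28, epilysin, fell (13.9 and 14.9 CPM in WT and 5.81 and 5.06 CPM in T133A; log2 fold change -1.41). Lower members numbered 1 with WT replicate 1 left out and 4 with T133A replicate 2 left out.

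Laminins are anchoring proteins of epithelial basement membranes. The laminin chain gene LAMB3 stood at 50.9 and 57.2 CPM in WT and 257 and 210.02 CPM in T133A (log2 fold change 2.11, SE 0.12, edgeR adjusted p = 9.76e-12). LAMA3 rose by less (49.6 and 49.6 CPM in WT and 68.2 and 70.8 CPM in T133A; log2 fold change 0.49, edgeR adjusted p = 0.00393), and it was not called when either WT library was left out. The integrin chains ITGA2, part of a collagen receptor (0.94), and ITGA5, part of the fibronectin receptor (1.12), were higher as well. In all, 8 of 35 integrin and laminin chains were higher (22.9%) and 1 lower, with 12 higher and none lower without T133A replicate 2. No member was lower when either WT library was left out.

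Of 60 collagens, matrix glycoproteins and lysyl oxidases, 15 were higher (25%) and 7 lower (11.7%), with a list median of 0.03. TNC, tenascin C, stood at 5.85 and 6.08 CPM in WT and 33.7 and 30.3 CPM in T133A (log2 fold change 2.42). COL4A1, a chain of basement membrane collagen, went from 44.4 and 39.3 CPM in WT to 96.2 and 98.01 CPM in T133A (log2 fold change 1.22), and COL7A1, the anchoring fibril collagen, from 70.6 and 75.9 CPM in WT to 208 and 184 CPM in T133A (log2 fold change 1.42). The crosslinking enzyme gene LOXL2 stood at 129.9 and 135 CPM in WT and 379 and 289 CPM in T133A (log2 fold change 1.33). Members called lower numbered 3 without WT replicate 1.

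**Figure D4:**
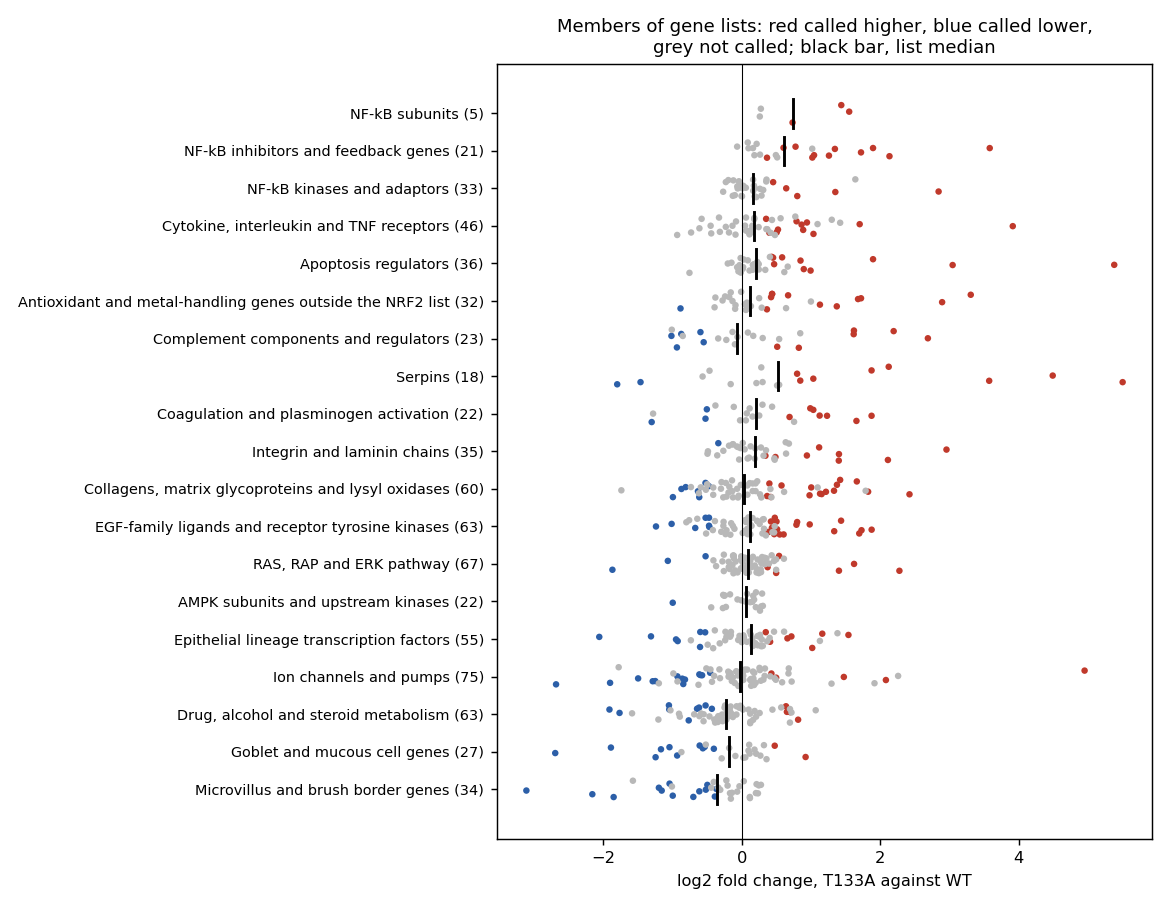
Log2 fold change of T133A against WT (x axis) for each tested member of 19 gene lists (y axis, number tested in brackets); red points were called higher, blue lower and grey neither, and black bars are list medians. All called members are red in the NF-kB, receptor and apoptosis lists and blue in the brush border list; complement, matrix and lineage lists hold both colours.

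Mitochondrial manganese superoxide dismutase, SOD2, stood at 76.5 and 69.1 CPM in WT and 519 and 564 CPM in T133A (log2 fold change 2.89, SE 0.12, edgeR adjusted p = 3.19e-14). SLC39A8, a zinc importer, went from 48.7 and 50.5 CPM in WT to 161 and 167 CPM in T133A (log2 fold change 1.72), and the metallothionein MT2A from 176 and 173 CPM in WT to 399 and 364 CPM in T133A (log2 fold change 1.13). NOX1, a superoxide-producing oxidase, stood at 23.9 and 24.8 CPM in WT and 64.4 and 61.6 CPM in T133A, and SLC40A1, the iron exporter ferroportin, was lower (61.7 and 56.8 CPM in WT and 30.4 and 33.7 CPM in T133A; log2 fold change -0.88). In total 11 of 32 antioxidant and metal-handling genes were higher (34.4%) and 1 lower, with 7 and 6 higher without WT replicates 1 and 2 and 3 lower without either KO library. Of 36 apoptosis regulators, 10 were higher (27.8%) and none lower. They included genes of inhibitors of death (BIRC3, and BCL2A1 at 0.117 and 0 CPM in WT and 2.82 and 2.53 CPM in T133A) and of promoters of it (BID, log2 fold change 0.90, BIK, 3.05, and the caspase gene CASP10, 0.99).

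Receptors for cytokines rose where they were called. Of 46 tested, 11 were higher (23.9%) and none lower. IFNGR1, a chain of the interferon-gamma receptor, stood at 51.6 and 52.98 CPM in WT and 159 and 181 CPM in T133A (log2 fold change 1.70, SE 0.11, edgeR adjusted p = 1.87e-10). TNFRSF9, the receptor 4-1BB, stood at 0.701 and 0.223 CPM in WT and 7.53 and 6.47 CPM in T133A, OSMR, the oncostatin M receptor, at 289 and 269.6 CPM in WT and 497 and 519 CPM in T133A, and IL4R at 27.8 and 26.8 CPM in WT and 63.5 and 48.4 CPM in T133A. Without WT replicate 1, 5 of the 46 were higher, and 3 were lower when T133A replicate 2 was left out. ICAM1, an adhesion ligand for leukocytes, went from near 0 to a low level (0.526 and 0.446 CPM in WT and 13.1 and 11.1 CPM in T133A; log2 fold change 4.62).

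Growth factor genes and their receptors changed in both directions. Of 63 genes of the EGF family, ephrins and receptor tyrosine kinases, 18 were higher (28.6%) and 7 lower (11.1%). The receptor gene EPHB2 stood at 36.7 and 32.7 CPM in WT and 137 and 118 CPM in T133A (log2 fold change 1.88), the ephrin gene EFNA1 at 15.4 and 15.1 CPM in WT and 55.2 and 43.6 CPM in T133A (log2 fold change 1.70), and the EGF-family ligand genes EREG and NRG1 rose by 1.34 and 0.98. EGFR, the EGF receptor, stood at 148 and 142 CPM in WT and 252 and 253 CPM in T133A (log2 fold change 0.80). The higher members numbered 8 and 9 without WT replicates 1 and 2. The lower members numbered 2 when T133A replicate 1 was left out and 1 when either WT library was, and DESeq2 called 14 members higher and none lower.

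In the TGF-beta, BMP, WNT and Notch list, 12 of 63 were higher (19.05%) and 3 lower, with 8 higher without either WT library. FSTL1, a secreted follistatin-like protein, stood at 315 and 327 CPM in WT and 757 and 779 CPM in T133A (log2 fold change 1.26), and NKD1, a negative regulator of WNT signalling, at 27.2 and 25.2 CPM in WT and 74.7 and 81.8 CPM in T133A (log2 fold change 1.58). INHBB, an activin subunit, was lower (23.2 and 20.1 CPM in WT and 8.80 and 9.35 CPM in T133A; log2 fold change -1.25), as was LGR4, a receptor for R-spondins (404 and 383 CPM in WT and 224 and 247 CPM in T133A; log2 fold change -0.74). Of the prostaglandin genes, 4 of 20 were higher (20%), with PTGS2, the inducible cyclooxygenase, at 575 and 522 CPM in WT and 1316 and 1470.1 CPM in T133A (log2 fold change 1.34) against 39.4 and 53.9 CPM in KO. Without either WT library the count was 2.

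Genes of mucus-secreting cells were more often lower than higher. Of 27 tested goblet and mucous cell genes, 10 were lower (37.0%) and 2 higher, with a median of -0.18. SPDEF, the transcription factor that drives mucous differentiation, stood at 33.7 and 36.2 CPM in WT and 9.37 and 7.41 CPM in T133A (log2 fold change -2.06, SE 0.16, edgeR adjusted p = 4.86e-09), and at 2.55 and 3.50 CPM in KO. The mucins MUC5AC and MUC5B stood at 1394 and 1282 CPM in WT and 597 and 532 CPM in T133A and at 3012 and 2839.9 CPM in WT and 1626 and 1212 CPM in T133A (log2 fold changes -1.24 and -1.04). AGR2, an endoplasmic reticulum protein needed for mucin folding, stood at 584 and 599.6 CPM in WT and 269.7 and 257 CPM in T133A (log2 fold change -1.17), and FCGBP, a mucus component, at 371 and 355 CPM in WT and 210.4 and 169.6 CPM in T133A (log2 fold change -0.93). These genes were lower still in KO, with 12.3 and 12.8 CPM of MUC5AC and 14.7 and 16.6 of AGR2. Leaving out WT replicate 1 left 5 lower members, and leaving out either WT library left 1 higher. SYTL2 was higher (6.66 and 7.14 CPM in WT and 12.1 and 14.1 CPM in T133A).

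The brush border list had no higher member and 13 lower of 34 (38.2%), with a median of -0.35. ANKS4B, a scaffold of the microvillus tip links, stood at 6.49 and 7.81 CPM in WT and 1.84 and 2.12 CPM in T133A (log2 fold change -1.85), and MYO1A, a myosin of the microvillus, at 4.62 and 4.52 CPM in WT and 1.09 and 0.941 CPM in T133A (log2 fold change -2.16). PLS1, an actin-bundling protein, fell from a higher level (108 and 97.4 CPM in WT and 54.96 and 71.6 CPM in T133A; log2 fold change -0.70). VIL1, villin, was scarce throughout (2.63 and 1.51 CPM in WT and 0.345 and 0.118 CPM in T133A). A higher member was called when T133A replicate 2 was left out. The list's lower members numbered 6 without WT replicate 2, 8 without WT replicate 1 and 8 by DESeq2. CDH17, a cadherin of gut epithelium, was lower too (261 and 266 CPM in WT and 133.03 and 143 CPM in T133A; log2 fold change -0.93, SE 0.11, edgeR adjusted p = 1.94e-06).

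Among 55 epithelial lineage transcription factors, 7 were lower (12.7%) and 7 higher (12.7%). Beside SPDEF, HES1, a Notch target, stood at 10.4 and 10.04 CPM in WT and 5.75 and 4.82 CPM in T133A (log2 fold change -0.95), and FOXA1, a pioneer factor of endoderm, at 89.3 and 78.2 CPM in WT and 61.3 and 54.7 CPM in T133A (log2 fold change -0.53). VDR, the vitamin D receptor (2.86 and 3.62 CPM in WT and 8.62 and 5.94 CPM in T133A), and PRDM1, a transcriptional repressor (5.26 and 5.41 CPM in WT and 10.8 and 10.9 CPM in T133A), were higher. Only 2 members in each direction were called in all fits that left out 1 library. Lower members numbered 3 by DESeq2, 3 without WT replicate 1 and 4 when WT replicate 2 was left out, where 3 members were higher.

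Falls outside these lists were smaller in fold than the rises. KRT4, a keratin of stratified mucosa, stood at 38.8 and 40.3 CPM in WT and 7.59 and 5.23 CPM in T133A (log2 fold change -2.62, SE 0.18, edgeR adjusted p = 2.14e-10), and at 4.80 and 6.405 CPM in KO. ENTPD2, a cell-surface enzyme acting on ATP, stood at 6.08 and 5.86 CPM in WT and 1.49 and 0.823 CPM in T133A (log2 fold change -2.35). PCSK1, a prohormone convertase, stood at 10.2 and 10.8 CPM in WT and 2.47 and 3.41 CPM in T133A (log2 fold change -1.83). SPTLC3 and DEGS2, both enzymes of sphingolipid synthesis, fell by 1.63 and 1.33 on the log2 scale. CNTN1, an adhesion protein of neurons, lost more in absolute level (852 and 787 CPM in WT and 375 and 471 CPM in T133A; log2 fold change -0.95).

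Of 63 drug, alcohol and steroid metabolism genes, 9 were lower (14.3%) and 4 higher, with a median of -0.22. ADH1C, an alcohol dehydrogenase, stood at 79.7 and 80.1 CPM in WT and 22.9 and 19.6 CPM in T133A (log2 fold change -1.91, SE 0.14, edgeR adjusted p = 1.68e-09). UGT2B15, a steroid glucuronosyltransferase, stood at 8.18 and 7.86 CPM in WT and 2.47 and 2.23 CPM in T133A, and CYP4F3 at 60.03 and 65.9 CPM in WT and 28.8 and 32.1 CPM in T133A (log2 fold change -1.05). CYP24A1, which inactivates vitamin D, went from 1175 and 1159.8 CPM in WT to 1795 and 1841 CPM in T133A (log2 fold change 0.64). Higher members numbered 2 when WT replicate 1, WT replicate 2 or T133A replicate 1 was left out. The lower members numbered 14 with scaling by library size alone, without either KO library or with the WT and T133A libraries alone. The UGT2B and CYP4F families hold similar copies whose reads may be shared.

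Ion channels and pumps had 13 lower (17.3%) and 5 higher (6.67%) of 75. KCNK5, an acid-sensitive potassium channel, stood at 22.9 and 20.97 CPM in WT and 8.22 and 9.76 CPM in T133A (log2 fold change -1.29), SCN9A, a sodium channel, at 28.9 and 24.1 CPM in WT and 14.5 and 15.5 CPM in T133A, and ATP2B1, the plasma membrane calcium pump, at 310.2 and 300.4 CPM in WT and 179.9 and 231 CPM in T133A (log2 fold change -0.57). KCNMA1, the large-conductance potassium channel, was higher (2.51 and 2.23 CPM in WT and 6.50 and 6.70 CPM in T133A; log2 fold change 1.47), and its KO libraries stood at 75.2 and 79.5 CPM. The lower members numbered 7 without WT replicate 1, 8 without WT replicate 2 or T133A replicate 1, and 7 by DESeq2, and the higher members 3 without WT replicate 1, 11 without T133A replicate 2 and 11 with a GC and length correction.

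Genes of RAS signalling were called in both directions, and 1 gene of the AMPK list was called. Of 67 RAS, RAP and ERK pathway genes, 6 were higher (8.96%) and 3 lower (4.48%), against 5.58% and 3.97% of all genes tested. RAP1GAP, which switches off RAP1, had the largest fall of the list (46.996 and 45.3 CPM in WT and 14.03 and 11.2 CPM in T133A; log2 fold change -1.87, SE 0.18, edgeR adjusted p = 4.14e-07), while KO stood at 30.2 and 50.1 CPM. The higher members numbered 14 and the lower 5 without T133A replicate 2, and 3 were higher without either WT library. In the list of AMPK subunits, upstream kinases and related genes, none of 22 was higher and 1 was lower. A correction for GC content and length gave 1 higher and 1 lower. The lower gene was SESN3, a sestrin (15.5 and 15.4 CPM in WT and 7.82 and 7.64 CPM in T133A; log2 fold change -0.997, SE 0.17, edgeR adjusted p = 0.000279). It is neither a subunit nor an upstream kinase, and none of those was called in the fit of all libraries.

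AP-1, immediate early and Krueppel-like factors had 9 of 33 higher (27.3%) and 4 lower (12.1%). JUNB and MAFF, dimer partners of basic leucine zipper proteins, rose by 1.03 and 1.16, and FOSL1 by 0.93 on the log2 scale. JUN and FOSL2 rose by 0.58 and 0.44. JUND (149 and 150 CPM in WT and 113 and 91.4 CPM in T133A) and FOS were lower (log2 fold changes -0.55 and -0.52). KLF2 was lower (17.8 and 12.7 CPM in WT and 6.73 and 4.64 CPM in T133A; log2 fold change -1.42), while KLF10 and MYC rose by 0.58 and 0.54. Without WT replicate 1 the higher members numbered 5 and the lower 2. Over the 1122 tested genes with a transcription factor family, 54 were higher (4.81%) and 48 lower (4.28%). HOXD10, another posterior HOX gene, was singled out after its values were seen: it stood at 0.234 and 0.335 CPM in WT and 1.67 and 1.94 CPM in T133A (log2 fold change 2.63, edgeR adjusted p = 0.00243).

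Some genes called the same way lay side by side. Counting tested protein-coding genes in chromosome order, 17 runs of at least 3 neighbours were higher (56 genes) and 8 runs were lower (29 genes). The guanylate-binding protein genes GBP1, GBP2, GBP4 and GBP5, interferon-inducible GTPases, formed 1 run of 220.5 kb on chromosome 1 (log2 fold changes of 0.85 to 3.89). IFI44L and IFI44, also known as interferon-inducible genes, lay in a lower run on the same chromosome. IFI44L stood at 149.7 and 144 CPM in WT and 90.3 and 104 CPM in T133A (log2 fold change -0.60) and IFI44 at 115 and 122 CPM in WT and 88.1 and 94.3 CPM in T133A (log2 fold change -0.37), and IFI44 was not called by DESeq2, nor without T133A replicate 1 or either WT library. On chromosome 20, PI3, the protease inhibitor gene SLPI (0.98) and the syndecan gene SDC4 (1.43) formed a run of 174 kb. Some neighbours are copies of each other, such as the GBP genes and the clade B serpins, and reads may be split between them.

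**Figure D5:**
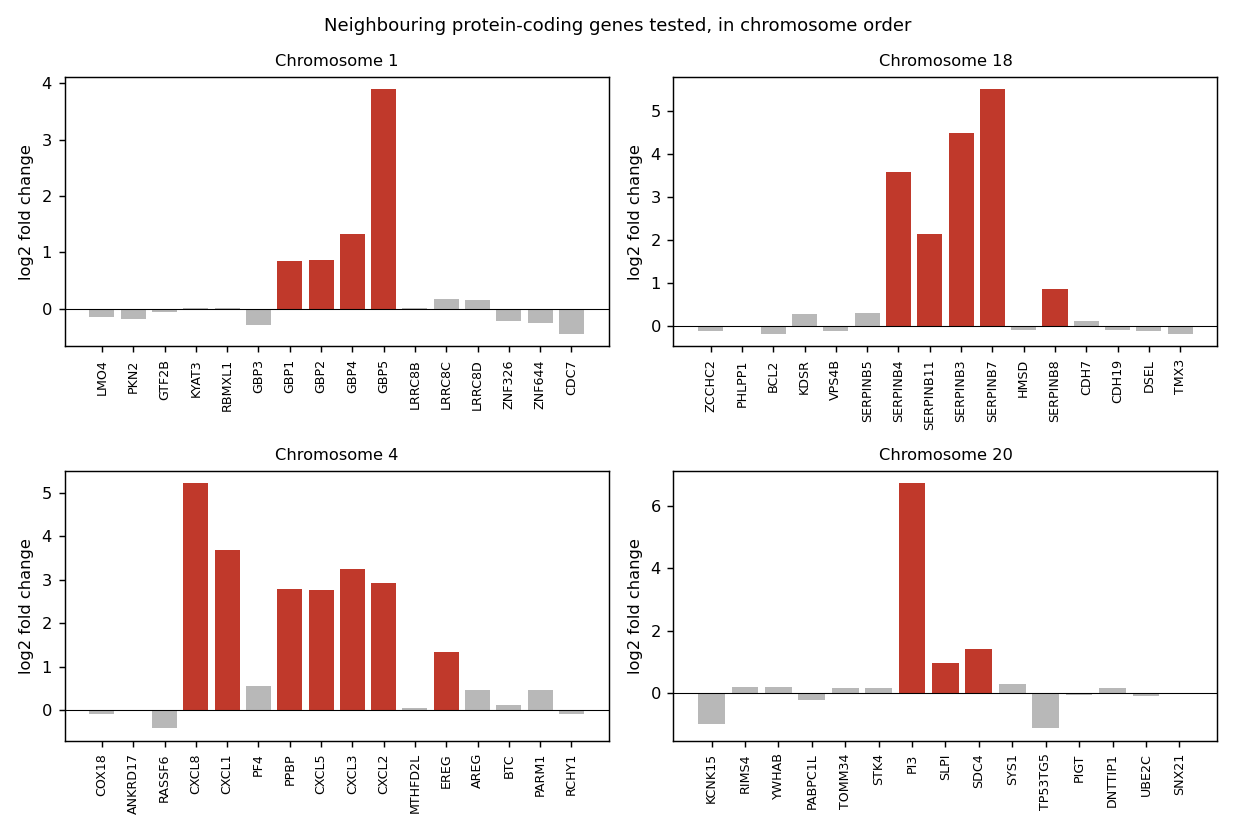
Log2 fold change of T133A against WT (y axis) for tested protein-coding genes in chromosome order (x axis, 1 bar per gene) around 4 runs of neighbours called higher; red bars were called higher and grey bars not called. By its definition a run ends at a gene not called the same way. GBP3 was not called beside GBP1 to GBP5, and PF4 was not called within the CXCL cluster. Genes called higher also lie outside the runs, namely CXCL8 (5.22), CXCL1 (3.69), EREG (1.34) and SERPINB8 (0.85).

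LincRNA genes were called less often than protein-coding genes. Of 665 lincRNA genes, 21 were higher (3.16%) and 7 lower (1.05%), against 852 (6.29%) and 613 (4.53%) of 13538 protein-coding genes. At least 2-fold differences were called for 14 higher and 5 lower lincRNA genes, against 254 and 128 protein-coding genes. Calls were rarer at low levels among all tested genes, and the part of level in this contrast was not tested. NKILA, a noncoding RNA known to bind the NF-kB inhibitor complex, stood at 1.75 and 2.12 CPM in WT and 7.70 and 6.59 CPM in T133A (log2 fold change 1.88, SE 0.24, edgeR adjusted p = 1.02e-05). MIR3142HG, the host of a microRNA gene, had no count in either WT library and 26 and 25 counts in T133A. Over all genes, 7 had 0 counts in both WT libraries and at least 10 in both T133A libraries, and none had the reverse. IRS4, an adaptor of the insulin receptor, had 25 and 49 counts in T133A, and was thus at least 12.1-fold higher, reckoned against 3 counts per WT library. The neighbouring transcript AL035425.3 had 20 and 29 counts in T133A (at least 7.97-fold). Such floors cover counting error only.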

How the data were processed

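RNA was sequenced from 6 libraries, 2 each of WT, T133A and KO. The authors deposited, per library, a raw count and an FPKM value for each of 58735 genes, and 31579 genes had a count. Tools and build in the submitters' processing notes are HISAT2 2.0.5, featureCounts 1.5.0 and GRCh38. Strand handling is not given in the sources used here. Overlapping or antisense genes may therefore share reads. The FPKM values deposited by the authors were recomputed from counts and gene length, with implied library sizes 0.967 to 1.03 of the totals, and served only as a check. Spreadsheet damage to 27 gene names was undone by gene identifier.

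Counts were fitted with edgeR 4.0.16 in R 4.3.3 (robust quasi-likelihood, TMM scaling, filterByExpr defaults, group as the only term, all 6 libraries). This left 16340 genes. The common coefficient of variation between libraries of a group, which edgeR calls biological, was 8.96%. As said above, that spread may be technical. Two-sided p-values were adjusted over all tested genes (Benjamini-Hochberg, threshold 0.05). Levels are CPM after TMM scaling. A count of 0 allows up to 3 counts, or 0.160 to 0.184 CPM. Gene lists (40, plus 5 of cell type markers), the rule for naming genes and the motifs were chosen with earlier results of these data known, so list counts are descriptions. Named genes are the 25 largest rises outside chemokines and cytokines and the 25 largest falls (protein coding, called, at least 2-fold, at least 5 CPM in the higher group), the 10 largest CPM changes each way, up to 6 called members per list, HOXB9, members of runs of neighbouring genes, 5 noncoding genes each way, and genes at 0 in a group. Some genes that this rule chose are not reported here. Promoters are RefSeq's. Alternatives were RLE size factors, library size alone, DESeq2 1.42.0, limma-voom (limma 3.58.1), no count filter, a mean of at least 5 CPM, WT and T133A libraries alone, a replicate block, a GC and length correction, and each library left out in turn. A crossed replicate block was added after the data were seen. The procedure was tested on counts simulated from WT levels and the fitted spread. It recovered 59.7% of 1.5-fold, 86.6% of 2-fold and 97.0% of 4-fold changes, and called 13 unchanged genes. Changed genes were not drawn from the scarcest genes. The simulation held no shift with GC content such as that between the T133A replicates. Python 3.11.15 with numpy 2.4.6, pandas 2.3.3 and matplotlib 3.10.9 made tables and figures.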

Additional observations from a re-analysis of the deposited data

How the results depend on the processing

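No called gene among the 320 named changed sign under any of the 16 alternatives. Of the 316 called, 233 kept their call under all those that tested them. These genes were named largely for the size or p-value of their change in the same fit, so their stability does not describe all calls. Of all 1560 genes called, 1152 were also called by DESeq2 and 1305 with scaling by library size alone. The 912 higher and 648 lower genes became 1522 and 878 with a correction for GC content and length, and the genes called at 2-fold fell from 431 to 194 when only genes with a mean of at least 5 CPM were tested. DESeq2 called 741 higher, 454 lower and 292 at 2-fold. Leaving out 1 library at a time gave 456 to 1447 higher genes, 307 to 1132 lower genes and 365 to 510 at 2-fold, where the lone library is assumed to vary like the others. HOXB9 ranged from -0.047 to 0.33 (log2) in these fits. LUM, which was not called, ranged from -0.042 (without T133A replicate 2) to 0.28. The cause of these shifts was not tested. Replicate numbers did not pair the libraries (correlation of same-numbered deviations of WT and T133A -0.16), and with the replicate block 791 genes were higher, 628 lower and 454 at 2-fold. A crossed replicate block, added after seeing the data, gave 1496 higher and 1334 lower. Genes under 1 CPM rest on few counts per library, and differences there were mostly not detectable at this depth.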
